A study of Mus musculus with 8 samples.

Results

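The genes described here encode the enzymes that add and remove O-linked N-acetylglucosamine (O-GlcNAc) and that make its donor, UDP-GlcNAc. They were the 10 genes Ogt, Mgea5, Gfpt1, Gfpt2, Gnpnat1, Pgm3, Uap1, Uap1l1, Eogt and Nagk, taken by name from the 19429 genes of the deposited table, and all 10 were found there once each. The cells were LF2 mouse embryonic stem cells, grown with serum and leukemia inhibitory factor, in which both copies of Tet1 carried a C-terminal FLAG tag followed by a 2A peptide and a fluorescent protein. WT cells (lines 2 and 5) had wild-type TET1, and D2018A cells (lines 7 and 8) had TET1 with an aspartate near its C-terminus changed to alanine, a change that weakens the binding of OGT to TET1. Each line was derived from 1 clone and gave 2 technical replicate libraries, so that 4 libraries from 2 lines stand for each genotype. The WT cells also lack a stretch of DNA away from Tet1, so genotype and that deletion cannot be told apart in these libraries. The study addressed the deletion with further single-targeted WT lines, 1 of which it describes as keeping an intact copy of the stretch. From qPCR and mass spectrometry of those lines, the study attributes the differences in expression and DNA methylation to D2018A and not to the deletion. Those lines are not analysed here.

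O-GlcNAc is a single sugar placed on serines and threonines of nuclear and cytoplasmic proteins. One enzyme, OGT, adds it and one enzyme, O-GlcNAcase, takes it off. The donor UDP-GlcNAc is built in the hexosamine pathway from fructose 6-phosphate, glutamine, acetyl-CoA and UTP, which ties the modification to nutrient supply, and OGT is essential in embryonic stem cells.

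The table gives 1 expression value per gene, the authors' mean normalised count. It is the number of reads counted in the gene, scaled to the depth of its library with a size factor and then averaged over every library in the authors' fit. The other numeric columns hold the authors' own contrast of the genotypes and were not used, so no difference between WT and D2018A is given for any gene. The means added up to 10937569 counts over all genes, with a median gene of 63.2. The smallest means fell on 12 single-read steps shared by at least 30 genes each, of which the 8 libraries described account for at most 8, and the size factors read from the steps ran from 0.726 to 1.47. Only 5 steps were shared by at least 50 genes. The means below may therefore cover about 12 libraries, 4 more than described. Embryonic stem cell markers were abundant: all 6 (Pou5f1, Nanog, Sox2, Esrrb, Zfp42 and Klf4) had means from 977 to 23079. Of the 6 fibroblast markers, Col1a2, Col3a1 and Acta2 had means under 1 (0.689, 0.0930 and 0.580), Col1a1 had 115 and Thy1 194, and Postn has no row under that name. In bulk RNA, few cells with a transcript and little of it in every cell cannot be told apart.

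The bases just upstream of 4 of these genes are shown first, as sequence context for the cycling pair and the Gfpt paralogs. TET1 acts on cytosines in CG dinucleotides, and no methylation value was analysed here. Each line holds the 250 bases before the transcription start of RefSeq (GRCm38.p6), in the direction of transcription, with every CG in capitals. Ogt lies at chrX:101639801-101640050 on the plus strand, Mgea5 (the O-GlcNAcase gene, named Oga in RefSeq) at chr19:45783554-45783803 on the minus strand, Gfpt1 at chr6:87042596-87042845 on the plus strand and Gfpt2 at chr11:49793905-49794154 on the plus strand. For Ogt, RefSeq gives another start downstream, and the upstream start is shown.
Ogt: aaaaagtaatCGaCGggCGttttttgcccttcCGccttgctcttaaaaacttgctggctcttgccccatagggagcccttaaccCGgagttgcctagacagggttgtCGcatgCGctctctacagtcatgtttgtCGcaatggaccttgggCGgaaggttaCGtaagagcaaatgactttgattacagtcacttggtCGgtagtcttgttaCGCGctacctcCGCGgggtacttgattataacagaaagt
Mgea5: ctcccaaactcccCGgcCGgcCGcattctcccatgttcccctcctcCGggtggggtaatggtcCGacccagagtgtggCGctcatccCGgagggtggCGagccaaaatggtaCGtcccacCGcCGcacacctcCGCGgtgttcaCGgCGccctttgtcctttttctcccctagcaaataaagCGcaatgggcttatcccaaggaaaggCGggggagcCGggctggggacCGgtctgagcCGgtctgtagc
Gfpt1: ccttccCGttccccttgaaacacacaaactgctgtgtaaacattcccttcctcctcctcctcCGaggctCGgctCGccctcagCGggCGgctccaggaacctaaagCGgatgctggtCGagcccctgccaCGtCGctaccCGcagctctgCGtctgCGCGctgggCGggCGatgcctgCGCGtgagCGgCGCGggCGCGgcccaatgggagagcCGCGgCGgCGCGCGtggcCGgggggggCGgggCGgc
Gfpt2: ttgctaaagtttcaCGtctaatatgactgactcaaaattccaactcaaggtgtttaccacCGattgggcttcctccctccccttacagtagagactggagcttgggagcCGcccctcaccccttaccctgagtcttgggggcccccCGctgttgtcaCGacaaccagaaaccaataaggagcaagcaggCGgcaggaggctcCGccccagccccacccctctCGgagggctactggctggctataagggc

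These upstream stretches held 15 CG dinucleotides for Ogt, 20 for Mgea5, 32 for Gfpt1 and 8 for Gfpt2. Windows from 250 bases before to 50 bases after the start were found for 7 of the 10 genes, in 8 windows, and not for Gnpnat1, Uap1l1 and Eogt. All 8 held more CG than the median window of RefSeq (7 CG over 32851 windows), with 38 in Gfpt1, 33 in Pgm3, 28 in Uap1, 26 in Mgea5, 20 and 14 at the starts of Ogt, 17 in Nagk and 15 in Gfpt2. The GC box GGGCGG, searched on both strands, occurred in 8 of 8 windows, against 35.7% of all windows. This motif holds a CG itself, and its share among windows of like CG content was not tested. The windows at the starts of Ogt also overlap each other. CCAAT occurred in 4 windows (Gfpt1, Gfpt2, Pgm3 and Uap1) against 37.4% of all, and CCGGAAG, the core of ETS factor sites, in Pgm3 and Nagk against 8.86%. None of the 8 windows held the TATA box TATAAA, which occurred in 13.6% of all. Nor did any hold the E-box CACGTG, found in 7.15% of all, or the unfolded protein response element TGACGTGG, found in 0.676%. No searched motif contains another, and each was read on both strands. These matches describe letters in a window and not bound sites.

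The O-GlcNAc cycling enzymes came first. Ogt (ENSMUSG00000034160, chrX:101640060-101684351, GRCm38), which encodes the transferase, had a mean normalised count of 4850. Its 95% interval ran from 4714 to 4988. Here and below the interval is an exact binomial one for a library of the mean depth, and it covers counting error only, not the spread between lines. Mgea5 (ENSMUSG00000025220, chr19:45750261-45783520), which encodes O-GlcNAcase, had a mean of 696 (645 to 750).

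Since longer genes collect more reads, levels below were compared between genes per kb of annotated exon unless another measure is named. On that scale Ogt had 603 counts per kb over 8.05 kb of exon and Mgea5 81.0 over 8.59 kb. Of the annotated transcripts, 2 of 7 for Ogt and 3 of 6 for Mgea5 are protein-coding, and the value per gene does not separate them. Per kb, Ogt was 7.44 times as abundant as Mgea5, with a counting interval from 6.87 to 8.07. Both lay above the median gene, which had 17.1 counts per kb, Ogt at percentile 96.0 and Mgea5 at percentile 73.5 of the 19351 genes with an annotated length.

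The hexosamine pathway starts with glutamine fructose-6-phosphate transaminase, the rate-limiting step, which transfers an amino group from glutamine to fructose 6-phosphate. Its paralogs are Gfpt1 and Gfpt2. Gfpt2 (ENSMUSG00000020363, chr11:49794178-49838613) had a mean of 2004 (1917 to 2094) and Gfpt1 (ENSMUSG00000029992, chr6:87042846-87092197) a mean of 513 (470 to 559). Per kb, Gfpt2 had 358 counts over 5.59 kb of exon and Gfpt1 50.9 over 10.1 kb. Gfpt2 was the more abundant of the pair, 7.04-fold per kb with a counting interval from 6.38 to 7.77. It was the second of the 10 genes and lay at percentile 92.7 of all genes per kb, against 65.9 for Gfpt1.

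To see whether reads of 50 bases could be split between the paralogs, all 50-base windows of their annotated transcripts were compared. Gfpt1 and Gfpt2 shared 0 windows. Their coding sequences were 72.2% identical (1476 of 2045 aligned bases). The closest pair of coding windows, shown because it is where a read would be hardest to assign, differed at 5 of 50 bases. It spans 2 exons of each gene, at chr6:87056194-87057670 in Gfpt1 and chr11:49811014-49811710 in Gfpt2. Capitals mark the bases that differ.
Gfpt1: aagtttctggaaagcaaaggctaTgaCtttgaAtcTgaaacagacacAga
Gfpt2: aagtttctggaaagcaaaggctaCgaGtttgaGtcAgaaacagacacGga

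The steps that follow had lower levels per kb of annotated exon. Gnpnat1 (ENSMUSG00000037722, chr14:45376334-45388802), which acetylates glucosamine 6-phosphate, had a mean of 123 (102 to 147), or 26.0 counts per kb. The same mean divided by the length of the Gnpnat1 exon bases free of other genes gave 157 counts per kb, above the 50.9 of Gfpt1. Reads were not counted over those bases alone, so 157 is a level only if the overlapped bases gave no counts. The place of Gnpnat1 thus depends on the length used. Pgm3 (ENSMUSG00000056131, chr9:86554377-86571842), which moves the phosphate of N-acetylglucosamine from carbon 6 to carbon 1, had a mean of 70.6 (55.5 to 89.6), or 15.7 counts per kb. Pgm3 was the lowest of the 10 genes per kb of annotated exon and the only one below the median gene on that scale. Against Ogt its level was 38.3 times lower. With exon bases free of other genes as the length, Pgm3 had 21.9 counts per kb and Nagk, with 17.3, was the lowest.

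Uap1 (ENSMUSG00000026670, chr1:170141938-170174957), which joins UTP and N-acetylglucosamine 1-phosphate to give UDP-GlcNAc, had a mean of 166 (142 to 193), or 41.4 counts per kb. Its paralog Uap1l1 (ENSMUSG00000026956, chr2:25359889-25365682) had a mean of 116 (95.9 to 139), or 28.6 per kb. Uap1 was 1.45 times as abundant per kb, with a counting interval from 1.14 to 1.86, a much smaller gap than between the Gfpt paralogs. With the longest transcript as the length it was 2.07 times. Their coding sequences were 65.5% identical and their transcripts shared 0 windows of 50 bases. The closest coding windows, shown for the same reason as those of the Gfpt pair, differed at 7 of 50 bases and lie within 1 exon each, at chr1:170151051-170151100 in Uap1 and chr2:25363914-25363963 in Uap1l1, both on the minus strand.
Uap1: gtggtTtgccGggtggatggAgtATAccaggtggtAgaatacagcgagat
Uap1l1: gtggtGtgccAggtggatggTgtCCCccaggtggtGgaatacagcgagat

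Outside the main route, Nagk (ENSMUSG00000034744, chr6:83794982-83804018) salvages free N-acetylglucosamine by phosphorylating it. Its mean was 81.0 (64.3 to 101), or 17.3 counts per kb, at the level of the median gene (percentile 50.2). Eogt (ENSMUSG00000035245, chr6:97110024-97149182) encodes a separate transferase of the endoplasmic reticulum that places O-GlcNAc on EGF domains of secreted and membrane proteins such as Notch receptors. Its mean was 193 (167 to 222), or 39.4 counts per kb. Ogt had a level per kb far above that of Eogt (603 against 39.4).

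Placed in order per kb, the 10 genes ran Ogt, Gfpt2, Mgea5, Gfpt1, Uap1, Eogt, Uap1l1, Gnpnat1, Nagk and Pgm3. Of the 9 pairs of neighbours, 6 had a counting interval of their ratio that lay above 1. The exceptions were Uap1 and Eogt (ratio 1.05, interval 0.849 to 1.30), Uap1l1 and Gnpnat1 (1.10, 0.844 to 1.43) and Nagk and Pgm3 (1.10, 0.786 to 1.53). The interval is that of 1 library of mean depth, wider than the counting error of a mean over several libraries, and the spread between lines is not in the table, so these neighbours were not ordered here. The step from Gfpt2 to Mgea5 was the widest, at 4.42-fold (4.06 to 4.83), and separated Ogt and Gfpt2 from the rest.

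**Figure D1:**
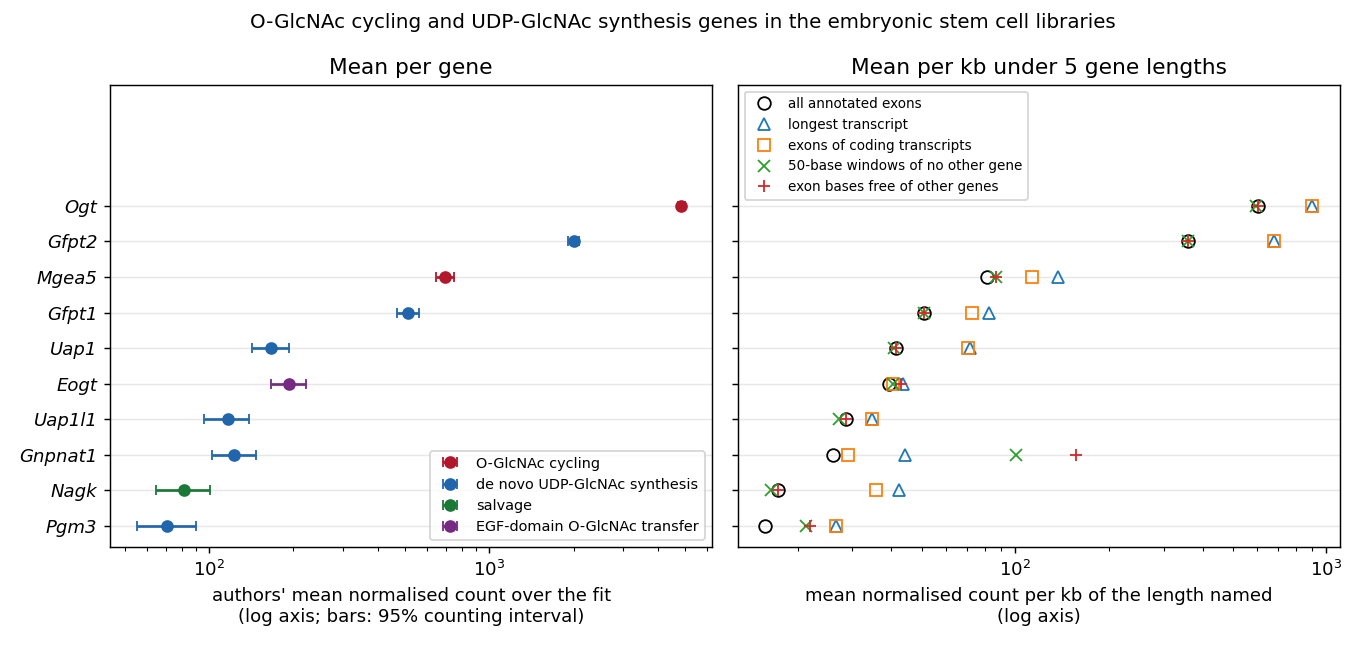
Left, the authors' mean normalised count of each gene on a log axis, with 95% counting intervals for 1 library of mean depth, coloured by role. Right, the mean per kb on a log axis under 5 definitions of gene length: Ogt and Gfpt2 stay on top at every length, and Gnpnat1 moves from 26.0 to 157 counts per kb.

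The length of a gene can be defined in several ways, and the order was recomputed with 5 of them. Ogt stayed first (593 to 901 counts per kb) and Gfpt2 the second (358 to 680) under all 5. The order of neighbours held under all 5 for 5 of the 9 pairs. Only the length changed, and each mean stayed that of the whole gene. Gnpnat1 was the gene that moved most, from 26.0 counts per kb with all annotated exon bases as the length. It had 101 with windows found in no other gene and 157 with exon bases free of other genes, where it was the third of the 10. All other genes moved by 2.58-fold or less.

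**Figure D2:**
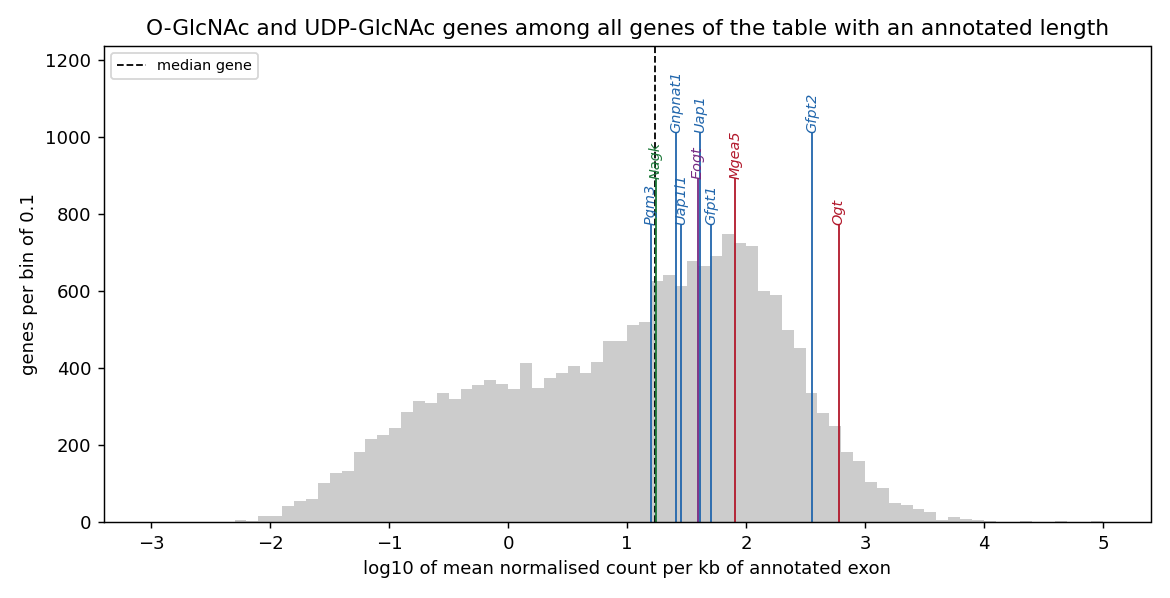
Histogram of the log10 mean normalised count per kb of annotated exon for the 19351 genes with an annotated length, in bins of 0.1, with the 10 genes as coloured lines and the median gene (17.1 counts per kb) as a dashed line. Ogt and Gfpt2 lie in the upper tail, and the other 8 spread from just below the median gene to 81.0 counts per kb.

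The study names its library kit, Lexogen SENSE Total RNA-seq, but no source used here says that reads were assigned by strand. Overlap with other genes was therefore examined gene by gene. Ogt, Gfpt1, Gfpt2, Uap1, Uap1l1 and Nagk had no exon base in common with another gene in GENCODE vM21. In that annotation Gnpnat1 shared 3878 exon bases, 81.9% of its total, with Styx on the opposite strand, through Styx transcripts that run past the end given in the deposited table. In the spans of the deposited table Styx (chr14:45351473-45373585) ends 2748 bases before Gnpnat1, so the extent of overlap in the authors' counting is uncertain. Gnpnat1 itself ends at base 45388802 in the deposited spans and at base 45404913 in GENCODE. The exon length and overlap given for it may therefore differ from those of the authors' counting. Styx, a catalytically inactive phosphatase, had a mean of 3.37. Pgm3 shared 1270 exon bases, 28.3%, with Dopey1 (named Dop1a in GENCODE) on the opposite strand. Dopey1 had a mean of 282, and the spans of both genes in the deposited table also overlap, by 1547 bases. Mgea5 shared 6.41% of its exon bases with the antisense gene Gm15491 (mean 15.4) and Eogt 8.49% with Gm44065. The spans of Mgea5 and Gm15491 in the deposited table also overlap, by 2050 bases. On the same strand, Gnpnat1 shared 74 exon bases, 1.56%, with Gm25353. Windows in common with genes elsewhere were fewer: apart from Styx, Gnpnat1 shared 9.33% of its windows with Gm14698 and 5.02% with the processed pseudogene AC132351.1. The levels of Gnpnat1 and Pgm3 are uncertain for these reasons.

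The levels were set beside those of 22 other genes of hexose, hexosamine and sugar-nucleotide metabolism, all present in the table. Of these, 17 lay above the median gene per kb, with a list median of 86.1 counts per kb. For the 10 genes the count was 9 and the median 40.4. Taken without genes of a mean under 10, the median gene is higher, and 12 of the 22 and 3 of the 10 lay above it. The 22 include Nanp, whose own mean of 5.50 is under 10. The larger share above this higher median was in the wider list. The highest 3 of the wider list were Gpi1 (1074 counts per kb), which interconverts glucose 6-phosphate and the fructose 6-phosphate that the pathway consumes, Alg13 (452), part of the transferase that uses UDP-GlcNAc for N-glycan precursors, and Gnpda1 (369), a deaminase that turns glucosamine 6-phosphate back into fructose 6-phosphate. The lowest 3 were Gnpda2 (7.91), the paralog of Gnpda1, Slc35a3 (7.03), a Golgi transporter of UDP-GlcNAc, and Nanp (3.70), a phosphatase of sialic acid synthesis. Ogt, with 603 counts per kb, was lower than Gpi1 and above the other 21.

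Partners of OGT and TET1 were the last list. All 9 lay above the median gene, with a list median of 654 counts per kb. Against the higher median gene taken without genes of a mean under 10, 8 of the 9 lay above, and Tet3 lay below. Hcfc1, a chromatin cofactor that OGT cleaves and modifies, had 3725 counts per kb. Among the TET dioxygenases Tet1 had 1493, Tet2 921 and Tet3 48.3 counts per kb. The level of Ogt (603) lay between those of Tet2 and Tet3.

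**Figure D3:**
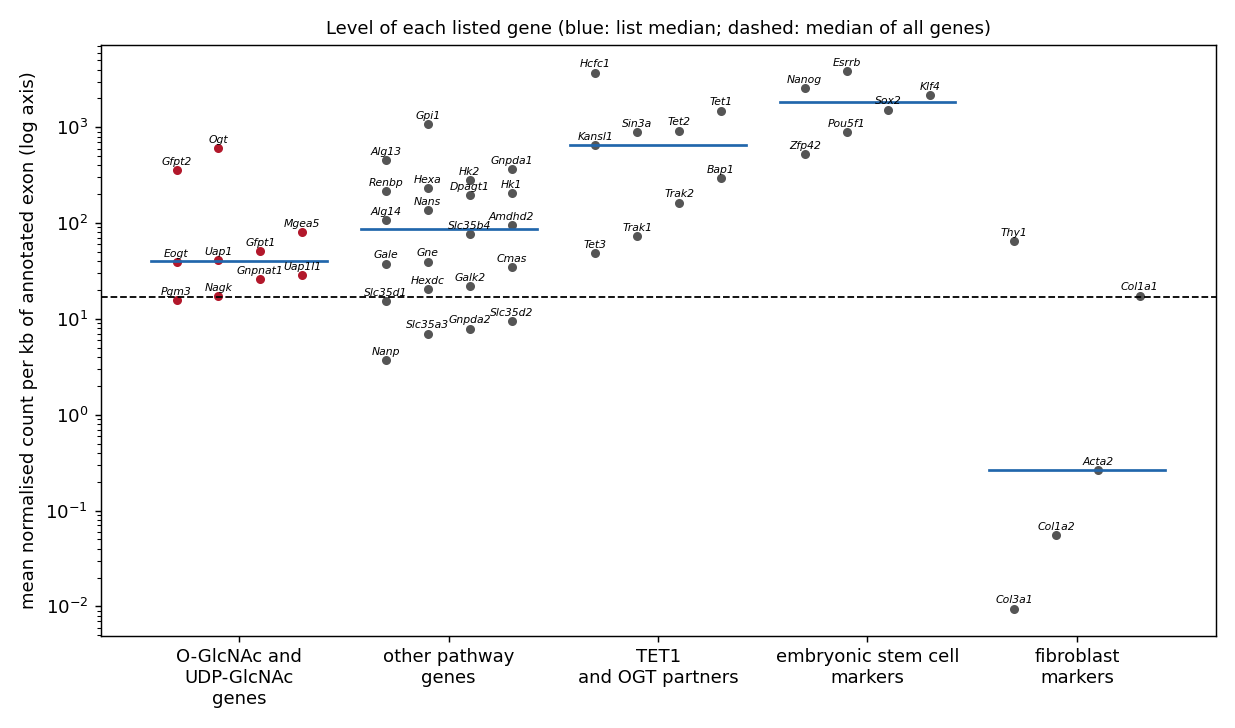
Mean normalised count per kb of annotated exon (log axis) for each gene of the 5 lists, with the list median in blue and the median of all genes dashed. On this length the 10 O-GlcNAc and UDP-GlcNAc genes run from 15.7 to 603 counts per kb, all below the median of the TET1 and OGT partners (654). The partners were not compared on other lengths.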

How the data were processed

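RNA was depleted of ribosomal RNA and sequenced as single-end reads of 50 bases. Per the labels and the study's methods, the authors aligned reads to GRCm38.p6 and counted them per gene with STAR 2.5.3a, then normalised with DESeq2 1.20.0. The column used is the authors' deposited mean signal per gene: counts scaled with size factors and averaged over their fit, without a length correction. The deposited table also holds fold changes, standard errors, statistics and p-values of the authors' contrast of D2018A with WT, which were not used. The planned edgeR test of that contrast needs counts per library and was not run, so all comparisons are descriptions of 1 mean per gene.

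Exon lengths, transcript windows and overlaps came from GENCODE vM21 (GRCm38), where 19351 of the 19429 identifiers matched. There 8 of the 10 genes had the same span, and Gnpnat1 and Mgea5 did not. Levels per kb used the union of exons. Intervals of 95% are exact binomial and cover counting error only. Libraries were counted as single-read steps shared by at least 30 genes that are not sums of lower steps, a procedure tested on simulated data. The mean total of 10937569 counts gives the precision. Coding sequences were aligned with Biopython 1.88. Intervals came from scipy 1.17.1. Upstream sequences are from RefSeq. The named genes were the 10 members, the highest and lowest 3 of the wider pathway list, Hcfc1 and the TET genes, and genes that overlap a member. Of the wider list, 1 planned gene is not reported here. The members and lists were chosen with earlier results of these data known.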

Additional observations from a re-analysis of the deposited data

Results flagged for a closer look

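The authors' mean held 4 more single-read steps than the 8 libraries described, so it may cover libraries outside those described. With at least 50 genes per step the steps numbered 5. The levels of all 10 genes would include any such libraries, and how far they would move each level was not tested.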

How the results depend on the processing

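No paired analysis was possible because the table analysed here holds 1 mean per gene over all libraries, and for the same reason no library or line could be left out and no test of the genotypes, with edgeR or DESeq2, was run. The ratio of Ogt to Mgea5 per kb was 7.44 with all annotated exons. It ran from 6.54 with the longest transcript to 7.97 with exons of protein-coding transcripts. With 50-base windows found in no other gene it was 6.84. The ratio of Gfpt1 to Gfpt2 was 0.142, and 0.121 with the longest transcript and 0.107 with exons of protein-coding transcripts. The ratio of Uap1 to Uap1l1 was 1.45, and 2.07 and 2.02 with these 2 lengths. No ratio changed direction under the 4 alternative lengths, the last of which (exon bases free of other genes) was chosen after the data were seen. Read from the steps, libraries behind the mean numbered 12 with at least 30 or 20 genes per step. With at least 50 they numbered 5, since 7 steps are shared by fewer genes. Windows were compared among annotated transcripts, not over the genome. Of the 10 genes, 9 lay above the median gene over all genes and 3 once genes below a mean of 10 were dropped, because the median then rises from 17.1 to 53.8 counts per kb. For the wider list the counts were 17 and 12. Per kb, over all genes and under the filters tried, percentiles of Ogt ran from 94.0 to 96.0 and those of Pgm3 from 23.3 to 48.9. Ranked by the mean without a length, Ogt lay at percentile 98.4 and Pgm3 at 51.4. Counting intervals are for 1 library of mean depth and are wider than those of a mean over several, and the spread between lines was not analysed here.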

Other observations

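Overlap with genes on the opposite strand was also described over the whole table. The 12078 protein-coding genes with no exon base on the other strand's exons had a median of 21.4 counts per kb, and the 57 genes with more than 75% of their exon bases so covered had 4.23. The classes between did not fall in order: the median was 35.3 for the 4204 genes with up to 25%, 26.4 for 489 genes with 25 to 50% and 18.3 for 103 genes with 50 to 75%. The median exon length was 3.83 kb in the first class and 1.63 kb in the last, so the classes also differ in length. Gnpnat1, with 26.0 counts per kb and 81.9% of its exon bases covered by Styx, was above the median of its class. Pgm3, with 15.7 and 28.3%, was below the median of its own.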
